A study of Homo sapiens with 6 samples.

Results

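The 10 genes described here encode the 5 DNA-binding subunits of the NF-kB transcription factor family (NFKB1, NFKB2, REL, RELA and RELB) and 5 of its regulators and feedback targets (BCL3, NFKBIA, NFKBIE, TRAF1 and BIRC3). They were taken by gene symbol, and each matched 1 of the 78932 gene identifiers counted in every library. All 10 passed the count filter, among 19086 genes tested. The data are RNA sequencing of KARPAS-45, an established human T-cell acute lymphoblastic leukaemia line, labelled as bone marrow leukaemic blasts without drug treatment. The 3 control libraries came from cells labelled wild type. The 3 MEF2C-OE libraries came from cells given a lentiviral vector with MEF2C, a MADS-box transcription factor, under the EF1A promoter and linked to mCherry, and sorted for mCherry 120 hours after transduction. The sources used here do not say if control cells were sorted or carried an empty vector, so transduction and sorting cannot be told apart from MEF2C itself. The labels call the replicates technical, and all are of 1 cell line, so the spread behind each p-value is that between libraries and may be technical.

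NF-kB proteins act as pairs. In resting cells IkB proteins such as NFKBIA hold them in the cytoplasm. In the canonical pathway a kinase complex marks the IkB proteins for destruction, and pairs that contain RELA or REL enter the nucleus. In the non-canonical pathway the NFKB2 precursor is cut to a shorter form that pairs with RELB. Several genes that encode the inhibitors and subunits are themselves NF-kB targets, which makes them feedback genes. In T cells the pathway is switched on by the antigen receptor and by TNF receptor family members, and it is often active in T-cell leukaemia.

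The start regions of 6 of these genes show a match to the sequence that NF-kB proteins bind. The sites are printed here because several feedback genes are known to carry such sites. RefSeq (GRCh38.p14) gave windows from 250 bases before to 50 bases after a transcription start for 8 of the 10 genes, 14 windows in all. RELB and NFKBIE had no entry. Both strands were searched for the degenerate NF-kB consensus, which begins with GGG and ends with CC or is the reverse complement of that, and overlapping matches were joined into 1 site. Of the 8 genes, 6 had a match in at least 1 window, at 10 sites, against 7.09% of all 27305 genes in the table. By window, 7 of 14 matched, against 5.91% of 35116. The genes were chosen as NF-kB subunits and feedback targets, so a higher share than among all genes is no separate result. RELA, with 2 windows, and TRAF1, with 3, had none. The MEF2 consensus, searched the same way, matched 0 of the 14 windows, against 2.99% of all windows. At that share few or no matches would fall in 14 windows, so the 0 is not read as a lack. A match describes the sequence only, and no binding was measured.

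Each line below gives 30 bases, 5′ to 3′ on the strand of the gene, with the matched bases in capitals and the position of the site's first base counted from the RefSeq start.
NFKB1, first of 2 starts, site at -49, chr4:102501300-102501329, plus strand: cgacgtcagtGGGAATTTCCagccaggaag
NFKB2, the second of 3 starts, site at -107, chr10:102394462-102394491, plus strand: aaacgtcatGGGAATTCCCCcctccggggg
NFKB2, the second start, site at -78, chr10:102394490-102394519, plus strand: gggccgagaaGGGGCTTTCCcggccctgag
NFKB2, the third start, site at -176, chr10:102395519-102395548, plus strand: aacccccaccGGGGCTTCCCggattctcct
NFKB2, the third start, site at -21, chr10:102395674-102395703, plus strand: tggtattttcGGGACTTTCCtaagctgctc
REL, site at -47, chr2:60881518-60881547, plus strand: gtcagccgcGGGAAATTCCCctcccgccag
BCL3, site at 3 (after the start), chr19:44748700-44748729, plus strand: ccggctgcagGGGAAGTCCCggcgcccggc

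For NFKBIA and BIRC3 a longer stretch upstream of the first annotated exon is shown, 250 and 216 bases, because in both the whole stretch lies outside annotated exons, which lets the place of the sites be seen. NFKBIA has 1 site at -81. BIRC3 has sites at -199 and -135.
NFKBIA, chr14:35404750-35404999, minus strand: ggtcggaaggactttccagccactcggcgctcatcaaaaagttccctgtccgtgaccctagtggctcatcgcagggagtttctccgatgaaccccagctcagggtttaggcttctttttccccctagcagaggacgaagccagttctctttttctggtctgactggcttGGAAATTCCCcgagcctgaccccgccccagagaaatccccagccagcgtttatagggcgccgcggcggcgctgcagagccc
BIRC3, chr11:102317234-102317449, plus strand: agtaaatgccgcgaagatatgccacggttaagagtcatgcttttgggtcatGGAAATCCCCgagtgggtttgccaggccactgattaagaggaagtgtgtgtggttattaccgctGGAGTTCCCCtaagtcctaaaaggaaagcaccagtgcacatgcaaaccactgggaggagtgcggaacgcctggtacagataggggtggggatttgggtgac

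**Figure D1:**
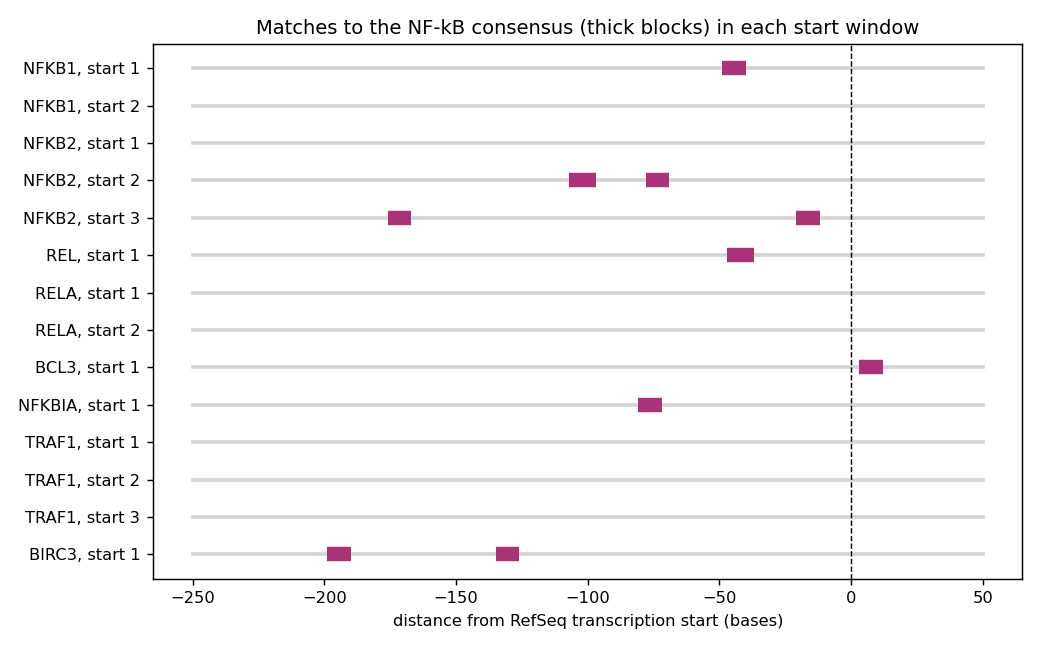
Positions of matches to the NF-kB consensus (thick blocks) in the 14 RefSeq start windows of 8 genes, with the distance from the transcription start in bases on the horizontal axis and 1 line per start. The 10 sites lie from -199 in BIRC3 to 3 in BCL3, and RELA and TRAF1 have none.

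The 10 genes did not move together in MEF2C-OE cells. REL and BIRC3 rose, NFKB2, BCL3 and TRAF1 fell, and NFKB1, RELA, RELB, NFKBIA and NFKBIE did not pass the test. That is 5 of 10 called at an adjusted p under 0.05, where 41.0% of all tested genes were called by edgeR, so the share called is near the background. In each direction, 2 of 10 were higher, against 20.8% of all tested genes, and 3 of 10 lower, against 20.2%. At a change of 1.5-fold or more 4 of 10 were called, against 7.13% of all tested genes. With each library's trend with GC content and transcript length taken out, REL (0.45) and NFKB2 (-0.45 on the log2 scale) fell below 1.5-fold. The matching share of all tested genes was not counted in that fit. The median log2 fold change was -0.10 for the 10 and -0.01 for all tested genes. Library groups did not overlap for 6 of 10, the called 5 and NFKBIE, against 48.8% of all tested genes.

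**Figure D2:**
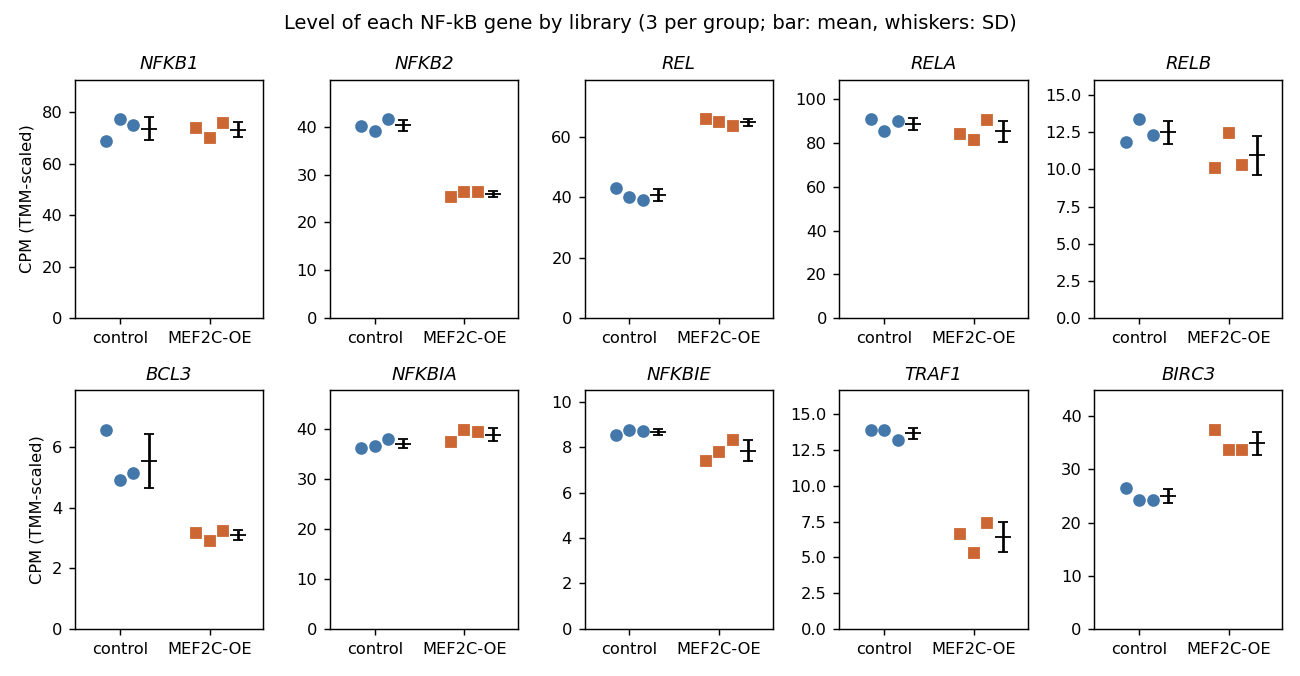
Level of each gene in CPM (read counts relative to TMM-scaled library size, linear axis from 0) in the 3 control libraries (circles) and the 3 MEF2C-OE libraries (squares), with the mean and SD beside them. REL and BIRC3 lie higher and NFKB2, BCL3 and TRAF1 lower in every MEF2C-OE library than in any control library.

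The data behind these values are deep. Each library had between 48218497 and 56890745 reads in genes, and the least counted of the 10 genes, BCL3, had 141 to 367 reads in each. MEF2C had 10, 1 and 0 reads in the control libraries and 40, 29 and 41 in the MEF2C-OE libraries, so it was higher in all 3 MEF2C-OE libraries (log2 fold change 3.28, SE 0.596, adjusted p = 1.50e-05, and 5.83 without control replicate 1). The level of MEF2C stayed low, with means of 0.0659 CPM in control and 0.680 CPM in MEF2C-OE cells, below 1 CPM in every library. Vector and endogenous MEF2C reads cannot be told apart in these counts. Of 17 T-lineage markers 16 were tested, with CD3E at 796 and LCK at 915 CPM in control cells, and the 17 summed to 5789 to 5863 CPM in control and 5071 to 5205 CPM in MEF2C-OE libraries. Summed levels in control and MEF2C-OE libraries were 12.5 to 14.7 and 11.7 to 13.1 CPM for 7 B-cell markers, with MS4A1 and CD22 at 0 reads in all 6 libraries and CD79A the most abundant. They were 1.59 to 1.98 and 1.24 to 1.42 CPM for 8 myeloid markers, with FCGR3A at 0, and 1.75 to 2.46 and 1.75 to 1.96 CPM for 5 natural killer cell markers, with NCAM1 at 0. They were 1.42 to 2.20 and 0.525 to 0.673 CPM for 6 erythroid and megakaryocyte markers, of which ITGA2B made up most and HBB, ALAS2 and PF4 were at 0. For 6 stromal markers they were 75.0 to 83.7 and 70.4 to 74.5 CPM, nearly all PECAM1, which was not called, with COL3A1 and VWF at 0. The other two tested stromal markers were lower, PDGFRB from 4.14 to 0.812 CPM (-2.36 on the log2 scale, adjusted p = 2.87e-13) and COL1A1 from 1.48 to 0.831 CPM (-0.83, adjusted p = 0.00675). Of the 16 tested T-lineage markers 10 were lower and 3 higher, or 81.25% called. Among all tested genes 41.0% were called, 20.2% lower and 20.8% higher. RAG1 and CD28 in that list had only 0.671 and 0.444 CPM in control cells, and RAG2 was not tested. Of 3 tested B-cell markers CD79B was lower, of 3 tested natural killer cell markers KLRD1 was higher, and ITGA2B was lower. KLRD1 had only 5, 8 and 9 reads in control and 17, 16 and 25 in MEF2C-OE libraries (edgeR adjusted p = 0.0437). The part of these markers in the results was not tested. In bulk RNA, fewer cells of a type and less RNA per cell cannot be told apart.

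Base composition moved with the groups. Across 13091 genes of at least 1 CPM, which share the 6 libraries and are not independent, fold changes correlated with transcript GC content (Spearman's rho -0.35). REL and BIRC3, which rose, have transcripts of 38.7% and 34.8% GC. NFKB2 and BCL3, which fell, have 62.4% and 67.4%, and TRAF1 has 54.6%. The 5 genes that were not called lie between 50.1% (NFKB1) and 65.4% (RELB). The part of GC content in these changes was not tested. A GC-corrected value comes from a fit in which each library's trend with GC content and transcript length was taken out. It is given for each of the 10 genes. Genes named from lists or by profile have it where it ended the call, turned the sign or moved the value over 1.5 times. It is not given for the cell type markers, BIRC2 and TNFAIP3, whatever its size. All 5 calls held in the GC-corrected fit, while the sizes of REL, BIRC3, NFKB2 and BCL3 shrank and that of TRAF1 hardly moved (-1.08 and -1.07).

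**Figure D3:**
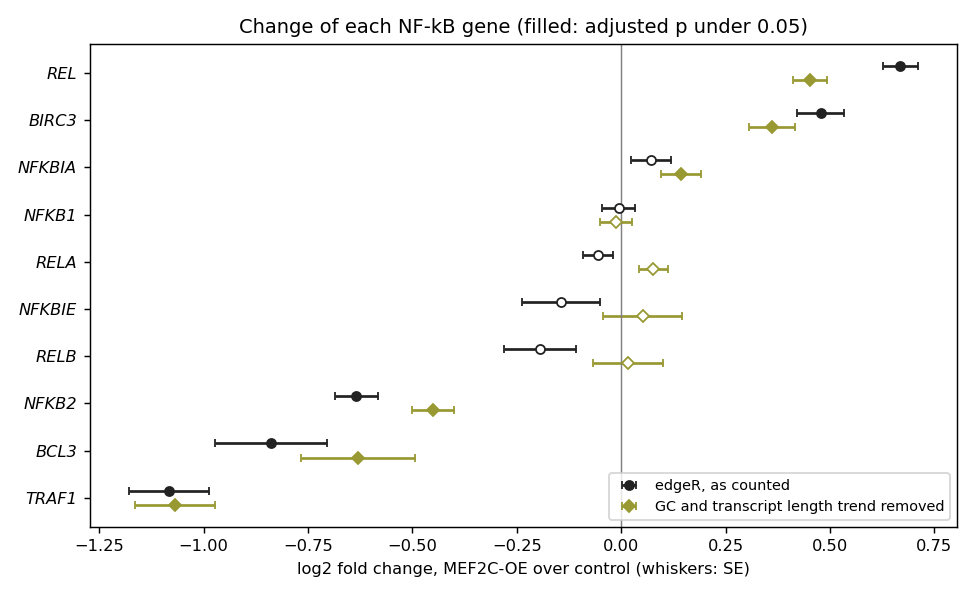
Log2 fold change of each gene, MEF2C-OE over control, with its SE, from edgeR on the counts (circles) and after GC correction (diamonds), filled where the adjusted p is under 0.05. TRAF1 lies at -1.08 and -1.07, REL at 0.67 and 0.45, and NFKBIA is filled after GC correction only.

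Among the subunits, REL was the gene that rose. REL encodes c-Rel, a subunit with an activation domain that lymphocytes use after antigen receptor signals. REL (ENSG00000162924.16, plus strand of chromosome 2, 60881521 to 60931610 in GRCh38) had 43.0, 40.1 and 39.0 CPM in the control libraries and 65.7, 65.0 and 63.6 CPM in the MEF2C-OE libraries. The groups lay far apart, with every MEF2C-OE library more than 20 CPM above the highest control. The mean went from 40.7 ± 2.09 to 64.7 ± 1.07 CPM (SD, n = 3), or 1.59-fold. The edgeR log2 fold change was 0.67 (adjusted p = 5.41e-17, SE 0.042). The GC-corrected value was 0.45 (SE 0.041, adjusted p = 2.82e-13). In GENCODE 29, 43.3% of the exon bases of REL are shared with AC010733.2 (ENSG00000267520.2), a non-coding gene on the same strand at its 3′ end. That identifier had 0 reads in all 6 libraries, and reads that fall in such shared bases can be left uncounted as ambiguous.

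NFKB2 was the subunit gene that fell. Its product is the precursor that the non-canonical pathway cuts. NFKB2 (ENSG00000077150.21, plus strand of chromosome 10, 102394110 to 102402529) had 40.1, 39.2 and 41.5 CPM in the control libraries and 25.3, 26.3 and 26.3 CPM in the MEF2C-OE libraries. Neither group varied by more than a few CPM, and they did not overlap. The mean was 40.3 ± 1.18 CPM in control and 26.0 ± 0.598 CPM in MEF2C-OE cells (SD, n = 3), a 1.55-fold fall. The edgeR log2 fold change was -0.63 (adjusted p = 7.94e-14, SE 0.051), and the gene fell by 0.45 on the log2 scale in the GC-corrected fit (adjusted p = 1.76e-10). REL and NFKB2 stood at almost the same CPM in control cells and lay far apart in every MEF2C-OE library, a comparison of reads and not of transcripts, since REL is the longer gene.

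RELB, the usual partner of the cut NFKB2 product, did not pass the test. RELB (ENSG00000104856.15, plus strand of chromosome 19, 45001430 to 45038198) had 11.8, 13.4 and 12.3 CPM in control and 10.1, 12.4 and 10.3 CPM in MEF2C-OE libraries. MEF2C-OE replicate 2 lay inside the control range and the other two below it. The log2 fold change was -0.20 (SE 0.086, adjusted p = 0.0674). It was -0.29 without MEF2C-OE replicate 2 (adjusted p = 0.00789) and 0.02 after GC correction (adjusted p = 0.905), so both call and direction rest on those choices.

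RELA and NFKB1, which form the best-known canonical pair, did not pass the test. RELA (ENSG00000173039.20, minus strand of chromosome 11, 65653596 to 65663094) encodes the main activating subunit of the canonical pathway, and had 90.8, 85.4 and 90.0 CPM in control and 84.1, 81.4 and 90.5 CPM in MEF2C-OE libraries. The groups overlapped, and the log2 fold change was -0.06 (SE 0.036, adjusted p = 0.229). GC-corrected it was 0.08 (adjusted p = 0.0791), and without MEF2C-OE replicate 3 it was -0.10 (adjusted p = 0.0396). NFKB1 (ENSG00000109320.14, plus strand of chromosome 4, 102501329 to 102617302) encodes the precursor of the canonical partner subunit. It had 68.7, 77.2 and 75.1 CPM against 74.0, 70.0 and 75.9 CPM, which overlap. Its edgeR log2 fold change was -0.01 (adjusted p = 0.923, SE 0.039), and -0.01 after GC correction as well. The sign of NFKB1 turns with the scaling, to 0.01 when libraries are scaled by their totals.

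Levels of different genes were compared per kilobase of exon, with exon lengths from GENCODE 29. RELA at 16.2 ± 0.537 and NFKBIA at 15.6 ± 0.381 CPM per kilobase were the highest of the 10 in control cells. Their ranges overlapped, but RELA lay above NFKBIA within each control library. NFKB1 at 11.8 ± 0.711 and NFKB2 at 8.98 ± 0.262 followed, then RELB at 4.12 ± 0.255. NFKBIE at 3.36 ± 0.0455, BIRC3 at 3.33 ± 0.180 and REL at 3.09 ± 0.159 came next. The libraries of BIRC3 overlapped those of NFKBIE and of REL, while every REL library lay below every NFKBIE library. Within each control library BIRC3 lay above REL. TRAF1 at 2.12 ± 0.0593 and BCL3 at 1.71 ± 0.273 were the lowest (SD, n = 3). In MEF2C-OE cells NFKBIA at 16.4 ± 0.552 and RELA at 15.6 ± 0.849 again had overlapping ranges, with NFKBIA above RELA within each library. NFKB1 at 11.7 ± 0.481 and NFKB2 at 5.79 ± 0.133 came after them. REL at 4.92 ± 0.0813 and BIRC3 at 4.64 ± 0.288 came next, with overlapping ranges and REL above BIRC3 within each library. RELB at 3.60 ± 0.423 followed, with NFKBIE at 3.04 ± 0.177 below it in every library. TRAF1 at 0.997 ± 0.164 and BCL3 at 0.956 ± 0.0541 were the lowest and overlapped. This order holds for the exon lengths used. By longest transcript, RELA would lie clear of NFKBIA, BCL3 above TRAF1 and BIRC3 clear of NFKBIE in every control library. The place of REL also depends on its length. Without the exon bases it shares with AC010733.2, which was tried after the overlap was seen, REL had 5.45 ± 0.280 CPM per kilobase in control cells, above RELB, and 8.67 ± 0.143 in MEF2C-OE cells, above NFKB2. Among all tested genes with a length, RELA lay at the 82.6th percentile of level per kilobase in control cells and BCL3 at the 35.9th.

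The make-up of the 5 subunit transcripts shifted from NFKB2 towards REL. As a share of their summed CPM per kilobase, NFKB2 made up 20.5%, 19.8% and 20.7% in the control libraries and 13.7%, 14.3% and 13.7% in the MEF2C-OE libraries. REL made up 7.48%, 6.89% and 6.62% in control and 12.1%, 12.0% and 11.3% in MEF2C-OE libraries. Both sets of shares are separated between groups, by -6.41 percentage points for NFKB2 and 4.82 for REL. Each had an exact two-sided permutation p of 0.1, the smallest that 3 against 3 libraries allow, and 0.25 after Benjamini-Hochberg adjustment over the 5 subunits, so this design cannot pass the threshold. RELA made up 36.7% ± 1.31 and 37.5% ± 1.19, NFKB1 26.6% ± 1.43 and 28.1% ± 0.745, and RELB 9.32% ± 0.568 and 8.67% ± 1.14 (SD, n = 3, control and MEF2C-OE), differences within or near the spread (exact permutation p = 0.5, 0.2 and 0.5). The summed level of the 5 was 44.2 ± 0.526 CPM per kilobase in control and 41.6 ± 0.966 in MEF2C-OE cells. Without the shared exon bases of REL, its share was 11.7% ± 0.696 in control and 19.1% ± 0.672 in MEF2C-OE cells.

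**Figure D4:**
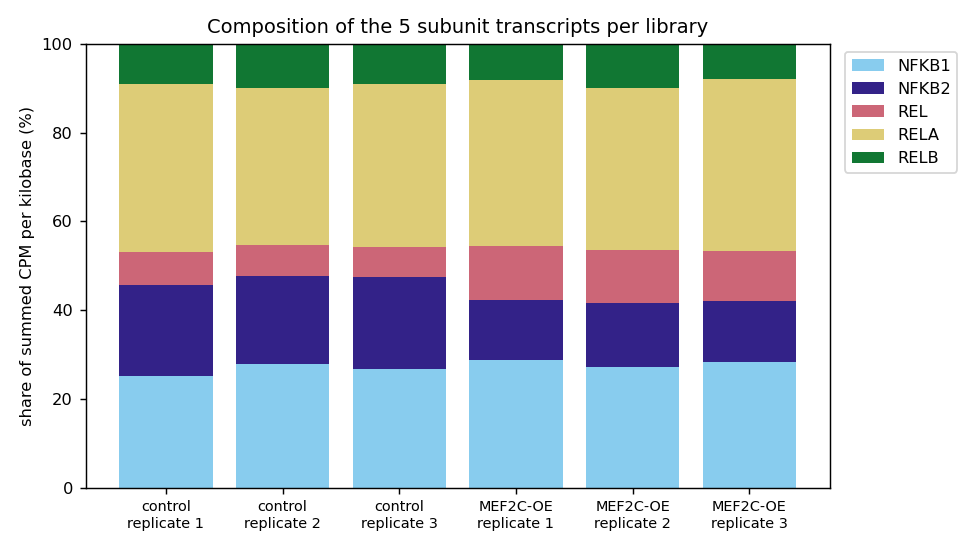
Share of each subunit gene in the summed CPM per kilobase of the 5 subunits, in percent, with 1 bar per library. The NFKB2 segment shrinks from 20.3% to 13.9% on average and the REL segment grows from 7.00% to 11.8%, while RELA stays the largest in all 6 libraries.

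Of the 3 IkB family members, BCL3 passed the test and NFKBIA and NFKBIE did not. BCL3, an atypical nuclear IkB protein that partners the cut forms of NFKB1 and NFKB2, fell. BCL3 (ENSG00000069399.15, plus strand of chromosome 19, 44747705 to 44760044) had 6.56, 4.93 and 5.16 CPM in control and 3.18, 2.90 and 3.22 CPM in MEF2C-OE libraries. Control replicate 1 was the highest, and all 3 MEF2C-OE libraries lay below every control. The log2 fold change was -0.84 (SE 0.135, adjusted p = 1.72e-06), or 1.79-fold, and -0.63 after GC correction (adjusted p = 1.74e-04).

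NFKBIA encodes IkB alpha, the inhibitor that NF-kB induces within its own feedback loop. NFKBIA (ENSG00000100906.12, minus strand of chromosome 14, 35401511 to 35404749) had 36.3, 36.8 and 38.1 CPM in control and 37.4, 39.8 and 39.5 CPM in MEF2C-OE libraries. The groups overlapped through MEF2C-OE replicate 1, and the log2 fold change was 0.07 (SE 0.048, adjusted p = 0.247). After GC correction it was 0.14 and passed the test (adjusted p = 0.0135). NFKBIE (ENSG00000146232.17, minus strand of chromosome 6, 44258166 to 44265788) encodes IkB epsilon, a slower feedback inhibitor. It had 8.54, 8.75 and 8.74 CPM against 7.42, 7.81 and 8.33 CPM. All 3 MEF2C-OE libraries lay below the controls, but the test was not passed (log2 fold change -0.14, SE 0.094, adjusted p = 0.235), and the value was 0.05 after GC correction (adjusted p = 0.717).

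TRAF1 and BIRC3, which encode partners in TNF receptor complexes, moved in opposite directions. TRAF1 is an adaptor that binds TRAF2 and is a well-known NF-kB target. TRAF1 (ENSG00000056558.11, minus strand of chromosome 9, 120902393 to 120929173) had 13.9, 13.9 and 13.2 CPM in control and 6.63, 5.28 and 7.37 CPM in MEF2C-OE libraries. It was at less than 8 CPM in each MEF2C-OE library, with replicate 2 the lowest. The mean was 13.7 ± 0.383 CPM in control and 6.43 ± 1.06 CPM in MEF2C-OE cells (SD, n = 3), a 2.12-fold fall and the largest change of the 10. The edgeR log2 fold change was -1.08 (adjusted p = 1.45e-12, SE 0.096).

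BIRC3 encodes a ubiquitin ligase, cIAP2, that joins the same complexes and limits both cell death and non-canonical signalling. BIRC3 (ENSG00000023445.17, plus strand of chromosome 11, 102317450 to 102339403) had 26.6, 24.3 and 24.2 CPM in control and 37.4, 33.6 and 33.7 CPM in MEF2C-OE libraries. Replicate 1 was the highest in each group, and the groups were separated by more than 6 CPM. The log2 fold change was 0.48 (SE 0.056, adjusted p = 2.45e-09), or 1.39-fold, and 0.36 after GC correction (adjusted p = 3.06e-07). Its paralog and neighbour BIRC2, named after its values were seen, had 78.4 and 82.3 CPM on average (log2 fold change 0.07, adjusted p = 0.0886).

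Genes whose profile over the 6 libraries was most like that of TRAF1 were ID2, TPM2 and ADM5. They had the smallest Euclidean distances between mean-centred log2 CPM values among 11149 protein-coding genes of at least 1 CPM, 0.128, 0.147 and 0.292. ID2, an inhibitor of basic helix-loop-helix transcription factors, had 3.09, 3.26 and 2.95 CPM in control and 1.38, 0.884 and 1.40 CPM in MEF2C-OE libraries. TPM2, a tropomyosin gene, had 14.8, 15.1 and 14.7 CPM against 7.18, 6.48 and 8.03 CPM. ADM5 had 2.47, 2.44 and 2.32 CPM against 1.15, 0.802 and 1.52 CPM. All 3 shared with TRAF1 the lowest value in MEF2C-OE replicate 2, but they were chosen by these same values. The distance rests on 6 libraries in 2 groups and on a pseudocount of 0.5 CPM. By edgeR, ID2 had a log2 fold change of -1.33, against -1.08 for TRAF1.

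The rest of the pathway was described by 4 further gene lists. Among receptors and ligands, which feed the pathway at the cell surface, 13 of 25 were tested and the other 12 had at most 15 reads in any library. Of the 13, 5 were lower, 1 higher and 7 did not pass. That is 46.2% called, near the 41.0% of all tested genes, of which 20.2% were lower and 20.8% higher, with a median log2 fold change of -0.43 against -0.01 for all tested genes. The median is the value of TNFSF13B, which was not called (adjusted p = 0.171). Of the genes below it, CD40LG, TNFRSF1B and CD28 were under 1 CPM in every library, while TNFRSF12A, TNFRSF13C and TNFRSF14 had means above 1 CPM. TNFRSF13C, the receptor for B-cell activating factor and an input of the non-canonical pathway, fell from 77.2 ± 0.991 to 53.1 ± 1.11 CPM (-0.54 on the log2 scale, adjusted p = 4.93e-16). TNFRSF14 fell from 19.7 ± 1.59 to 13.9 ± 1.79 CPM (-0.51). TNFRSF12A had 2.12 ± 0.479 and 1.42 ± 0.583 CPM (-0.59, adjusted p = 0.0376). It lost its call with any of 4 libraries left out, after GC correction (-0.39, adjusted p = 0.191) and with DESeq2. TNFRSF4, the OX40 co-stimulatory receptor of T cells, rose from 2.31 ± 0.192 to 3.50 ± 0.345 CPM (0.60, adjusted p = 0.00185). After GC correction 3 were lower and 3 higher, and without control replicate 3 only 3 were lower.

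Among kinases and adaptors that carry the signal, all 24 were tested, with 6 higher, 6 lower and 12 not past the test, or 50% called against 41.0% of all tested genes (median log2 fold change -0.04 against -0.01). RBCK1, a subunit of the linear ubiquitin ligase, rose from 420 ± 7.22 to 519 ± 8.98 CPM (0.31 on the log2 scale, adjusted p = 2.72e-15), and by 0.51 after GC correction. RIPK1, the kinase of TNF receptor complexes, rose from 30.8 ± 0.365 to 37.6 ± 0.939 CPM (0.29). IRAK1, a kinase of Toll-like and interleukin-1 receptors, fell from 91.4 ± 1.62 to 75.1 ± 4.40 CPM (-0.29), and by 0.11 after GC correction. TRADD, the death domain adaptor of TNF receptors, had 8.13 ± 0.989 and 6.24 ± 0.849 CPM (-0.38, adjusted p = 0.00407), with overlapping libraries and no call after GC correction (-0.17, adjusted p = 0.21).

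Inhibitors and negative regulators other than the members were tested in 15 of 15 cases, with 6 higher, 2 lower and 7 not past the test. That is 53.3% called against 41.0% of all tested genes, of which 20.8% were higher and 20.2% lower (median log2 fold change 0.06 against -0.01). The atypical nuclear IkB genes split. NFKBIZ rose from 4.80 ± 0.544 to 6.53 ± 0.105 CPM (0.45 on the log2 scale, adjusted p = 0.00148), and NFKBID fell from 5.84 ± 0.199 to 3.95 ± 0.227 CPM (-0.56, adjusted p = 1.62e-04), and by 0.36 after GC correction. OTULIN, which removes linear ubiquitin chains, rose from 147 ± 2.12 to 170 ± 0.732 CPM (0.20), and by 0.08 after GC correction. TRAF2, the partner of TRAF1 and BIRC3, fell from 73.7 ± 4.10 to 64.6 ± 2.41 CPM (-0.19), but had 0.01 after GC correction (adjusted p = 0.857). TNFAIP3, a classic feedback inhibitor named after its values were seen, had 94.1 and 97.5 CPM (0.05, adjusted p = 0.193). Without control replicate 2 only 3 of the 15 were higher.

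Other textbook NF-kB target genes were tested in 16 of 30 cases, and the other 14 had at most 26 reads in any library, with 7 of them at 0 reads throughout, among them CXCL8, IL6, VCAM1 and PTGS2. Of the 16, 8 were lower, 4 higher and 4 not past the test. That is 75% called against 41.0% of all tested genes, of which 20.2% were lower and 20.8% higher (median log2 fold change -0.15 against -0.01). DUSP2, a phosphatase gene of activated lymphocytes, fell from 22.6 ± 1.68 to 12.1 ± 1.90 CPM (-0.90 on the log2 scale, adjusted p = 1.50e-11). JUNB, an AP-1 subunit gene, fell from 28.6 ± 2.43 to 16.3 ± 0.681 CPM (-0.81), and the early activation antigen gene CD69 from 10.6 ± 1.80 to 7.03 ± 0.442 CPM (-0.60). TNFAIP2 rose from 4.91 ± 0.338 to 8.23 ± 0.473 CPM (0.74, adjusted p = 1.68e-07). Many of these targets, such as JUNB, DUSP2 and CD69, also respond to other signals. Without control replicate 3 only 2 of the 16 were higher.

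**Figure D5:**
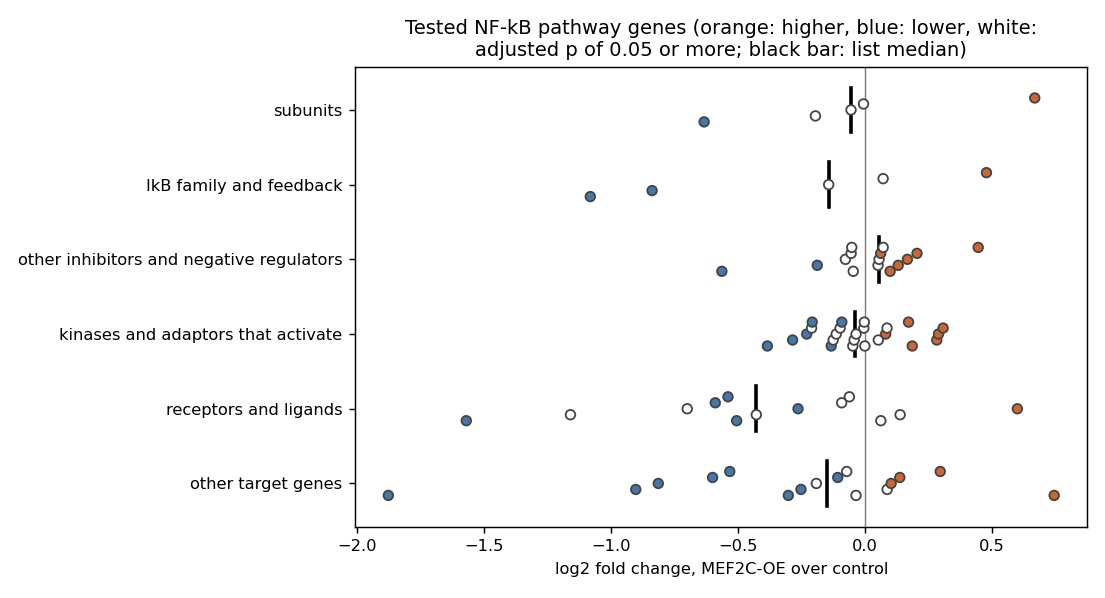
Log2 fold change, MEF2C-OE over control, of every tested gene of the pathway, by list (orange higher, blue lower, white not past an adjusted p of 0.05, black bar the list median). The receptor and ligand list has its median at -0.43, the value of TNFSF13B, which was not called. The kinase and adaptor list lies around 0 with 6 genes called each way.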

How the data were processed

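Total RNA from 3 control and 3 MEF2C-OE KARPAS-45 libraries was extracted with TRIzol and sequenced from TruSeq libraries, per the labels' protocols. The deposited values are counts of reads per gene, not normalized, made by the authors with Trim Galore, STAR and HTSeq on hg38, per the submitters' processing notes. Their versions, the annotation release and the strand setting were not found in those notes. Each file has 5 summary lines, which were left out. Of all lines' reads, 70.9% to 71.3% fell in genes, 20.9% to 21.8% outside features, 3.31% to 3.46% were ambiguous and 4.03% to 4.68% aligned to several places.

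Symbols came from a gene name table (61481 identifiers matched), and lengths, GC content and coordinates from GENCODE 29, which had them for 88.8% of tested genes. Counts were fitted in R 4.3.3 with edgeR 4.0.16 (filterByExpr, TMM, robust quasi-likelihood test, Benjamini-Hochberg over 19086 genes). SEs are the fold change over the root of F, and CPM is TMM-scaled. The test was checked on simulated counts. Alternatives were other scalings and filters, DESeq2 1.42.0, limma-voom (limma 3.58.1), a replicate block, each library left out, and an offset that removed each library's GC and transcript length trend (splines of 5 degrees of freedom).

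Named genes are the 10 members, MEF2C, up to 4 called genes per list of largest change at 1 CPM or more, and the 3 profiles nearest the most changed member (pseudocount 0.5 CPM). The members and lists were chosen with earlier results of these data known. Figures were drawn with matplotlib 3.10.9.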

Additional observations from a re-analysis of the deposited data

How the results depend on the processing

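In each of the 14 alternative fits REL and BIRC3 stayed called as higher (0.45 to 0.71 and 0.36 to 0.52) and NFKB2, BCL3 and TRAF1 as lower (-0.65 to -0.45, -0.92 to -0.63 and -1.19 to -0.96). After GC correction the sign turned for RELA (0.077), RELB (0.016), NFKBIE (0.051) and TRAF2 (0.011), and receptors and ligands had 3 higher and 3 lower. NFKB1 turned to 0.013 with library totals and ranged from -0.055 to 0.029 with each library left out. RELB was called at -0.20 with a filter of 1 CPM (adjusted p = 0.0488). Leaving out each library gave 3 to 5 higher inhibitors, 2 to 4 higher targets and 3 to 6 lower receptors and ligands. Leaving out each library also gave 2 higher and 3 to 4 lower members. With longest transcript lengths the NFKB2 share moved by -5.57 and REL by 3.74 percentage points, and without shared exon bases REL by 7.40 and RELA by -0.48 (0.75 as reported). The cause was not tested for any of these.

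With the replicate number as a block 2 members were higher and 3 lower, and no member's call changed. Same-numbered libraries did not deviate together (correlations 0.019, -0.024 and -0.010 over 13902 genes). No pairing by number was seen, but paired libraries with little shared deviation would look the same. How many reads of REL were left uncounted in shared exon bases cannot be read from these counts. The SE of the log2 fold change was 0.086 for RELB, 0.094 for NFKBIE and 0.135 for BCL3, against 0.036 for RELA. Small changes were thus harder to detect in those 3 genes. Differences of 1.14-fold in RELB and 1.10-fold in NFKBIE were not called, and neither was 1.04-fold in RELA.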
